A study of Mus musculus with 12 samples.

Results

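The comparison described here set the liver of p53 knockout mice on a high-fat diet (HFD) against the liver of p53 knockout mice on a normal diet. It rests on 6 of the 12 libraries of the series, 3 a diet, and covers every gene of the deposited counts. Per the labels, all 12 libraries are total RNA from the liver of C57BL/6 mice aged 12 weeks. The ko_normal group carries the genotype p53 ko with a normal diet, and the ko_HFD group carries the same genotype with HFD. The wt_normal and wt_HFD groups, p53 wild type on the same diets, enter only to estimate the spread and to place the diet changes of the knockout beside those of the wild type. What both knockout groups share, the loss of p53, is therefore no part of the diet comparison. The sources used here state neither the design of the knockout allele nor the composition and length of the diet, the sex of the mice, the feeding state or the time of day at sampling. Whether the 3 libraries of a group came from separate mice is not in the labels, so every p-value here reflects only how far these libraries vary, and that variation could be technical.

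The liver makes much of the body's cholesterol and takes up most of what circulates. The membrane-bound factor SREBP-2 is released when sterols in the endoplasmic reticulum run low, enters the nucleus and raises the genes of cholesterol synthesis and uptake, while dietary cholesterol normally holds it back. Fat in the diet also alters the genes of lipid storage and oxidation, glucose handling, amino acid breakdown and the cytochromes P450 that clear drugs and steroids. p53 is a stress-responsive transcription factor that, beside the cell cycle, acts on several of these metabolic genes.

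The 6 knockout libraries held between 15757330 and 20492567 counts. All 12 hepatocyte markers were detected, and they took 8.78% to 9.89% of the counts. Trp53, the gene that encodes p53, was measured at 1.62, 0.399 and 0.273 CPM (counts scaled to library size) in ko_normal and at 0.701, 0.748 and 0.752 CPM in ko_HFD. Each of these values lay below the lowest wt library, at 8.54 CPM, in accord with the labels. Some libraries stood apart. Mitochondrially encoded genes took 14.6%, 4.75% and 6.06% of the counts in ko_normal replicates 1 to 3 and 4.18%, 10.3% and 7.22% in ko_HFD. In a principal component analysis of the knockout libraries, the first component (35.3% of the variance) set ko_normal replicate 1 apart, the second (25.8%) ko_HFD replicate 1 and the third (18.1%) ko_HFD replicate 2. None of the 3 components separated the diets. In wt_normal replicate 2, skeletal muscle genes took 1.19% of the counts, against at most 0.00141% in any of the other 11 libraries.

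No gene passed the test between HFD and normal diet in knockout liver. Of 14433 genes tested with edgeR's quasi-likelihood F-test, 0 (0.0%) had an adjusted p under 0.05, and 812 (5.63%) had an unadjusted p under 0.05, 381 of them higher on HFD (2.64%) and 431 lower (2.99%). The smallest adjusted p was 0.0713, shared by 5 genes: Msmo1 and Cyp51, enzymes of cholesterol synthesis, were higher on HFD, and the cytochromes Cyp3a11 and Cyp2c69 and the exchange factor Tiam2 were lower. The count of calls depended on the tool: DESeq2 called 37 genes, 22 higher and 15 lower, and voom with sample weights called 6. All 3 knockout libraries on HFD lay above all 3 on normal diet for 787 genes (5.45%) and below them for 860 (5.96%), so that 1647 genes (11.4%) did not overlap. The median log2 change over all genes was -0.0046. In simulated counts with the same library sizes, the test recovered 17.4% of genes changed 2-fold and 69.6% of genes changed 4-fold in this comparison, so smaller changes would mostly not be called at this number of libraries. Below, a gene or list is described by its values. A difference is called higher or lower from its fitted value without a claim that it passed the test, and in a sample of whole liver fewer cells of a type and less RNA per cell cannot be told apart.

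Cholesterol synthesis was the list with the most genes above every normal-diet library. All 21 listed enzymes were tested: 17 were higher on HFD and 4 lower, with a median log2 change of 0.49. The HFD libraries lay above every normal-diet library for 13 of the 21, against 5.45% of all genes tested, and below for 0. An unadjusted p under 0.05 was found for 11, all of them higher, against 2.64% of all genes. The summed level of the 21 genes was 723 to 949 CPM on normal diet and 992 to 1172 CPM on HFD, so the groups did not overlap. The direction was the same in each part of the pathway. Of the 9 enzymes from acetyl-CoA to the isoprenoids 7 were higher, with a median of 0.81. All 3 enzymes that make squalene and lanosterol were higher, with a median of 0.56. Of the 9 enzymes from lanosterol to cholesterol 7 were higher, with a median of 0.40. Without ko_HFD replicate 1 the median over the 21 genes was 0.37 and 8 had an unadjusted p under 0.05.

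The promoters of 3 of the leading genes of this pathway are shown because the genes stood higher together. The windows run from 250 bases before to 50 bases after the annotated start and come from RefSeq on build GRCm38.p6. Msmo1 is at chr8:64733529-64733828, Cyp51 at chr5:4104648-4104947 and Mvd at chr8:122443373-122443672, all on the minus strand, written 5′ to 3′. Capitals mark CCAAT or its reverse complement, the core of the box bound by NF-Y, a factor known to act beside SREBP on sterol-regulated promoters.
Msmo1: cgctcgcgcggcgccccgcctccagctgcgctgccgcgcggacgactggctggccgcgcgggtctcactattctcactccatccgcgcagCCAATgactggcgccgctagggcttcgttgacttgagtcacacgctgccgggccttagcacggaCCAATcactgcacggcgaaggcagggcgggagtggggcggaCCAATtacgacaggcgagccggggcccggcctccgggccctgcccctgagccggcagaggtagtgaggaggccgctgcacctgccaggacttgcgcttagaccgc
Cyp51: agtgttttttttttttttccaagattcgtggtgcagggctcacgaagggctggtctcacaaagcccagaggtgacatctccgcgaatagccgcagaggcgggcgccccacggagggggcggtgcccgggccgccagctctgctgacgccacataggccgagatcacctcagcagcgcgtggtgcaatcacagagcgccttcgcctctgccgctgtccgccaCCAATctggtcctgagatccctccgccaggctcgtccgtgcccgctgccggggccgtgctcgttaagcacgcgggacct
Mvd: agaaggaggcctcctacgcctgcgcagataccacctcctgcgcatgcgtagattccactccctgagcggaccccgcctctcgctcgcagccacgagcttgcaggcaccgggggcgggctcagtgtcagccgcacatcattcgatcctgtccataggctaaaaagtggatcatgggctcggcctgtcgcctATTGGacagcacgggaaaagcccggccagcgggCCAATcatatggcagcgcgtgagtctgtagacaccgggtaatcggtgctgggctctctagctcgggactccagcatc
The window of Msmo1 held 3 such boxes, that of Mvd 2 and that of Cyp51 1. Of the 16 pathway genes with an entry in the promoter table, which have 19 windows, CCAAT was found on either strand in 15 of the 19 windows, and in 37.4% of all 32851 windows of the same length. Spellings of the sterol regulatory element were also searched on both strands. TCACNCCAC, which contains the looser CACNCCAC, was found for Hmgcs1 alone of the 16 genes and in 1.24% of all windows. CACNCCAC was found for Hmgcs1 and Acat2 and in 6.24% of all windows, and TCACCCCA for Hmgcs1 and in 1.56%. A longer spelling with more free positions was found for Msmo1 and in 1.42% of all windows, and TCACNCGAC for none of the 16 and in 0.31%. Sqle, Fdft1 and Fdps have no entry in the table used. A match of letters is a description of the window and not evidence of binding.

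In the early part of the pathway, Hmgcs1, which joins acetyl-CoA units ahead of the committed step, was measured at 70.0, 75.9 and 59.2 CPM on normal diet and 91.7, 147 and 122 CPM on HFD. Mvd, the decarboxylase that ends the mevalonate steps, was measured at 6.61, 6.69 and 5.56 CPM and at 17.3, 15.9 and 11.6 CPM. For both genes each HFD library was above each normal-diet library. The log2 change was 0.81 (SE 0.26) for Hmgcs1 and 1.25 (SE 0.24) for Mvd, with edgeR adjusted p of 0.721 and 0.227. Mvk, mevalonate kinase, stood at a log2 change of 0.58 with no overlap, and Pmvk, the next kinase, at 0.35 with overlap. Idi1 and Fdps, which make the isoprenoid units and farnesyl diphosphate, were measured at only 0.116 to 1.15 CPM on normal diet and 0.526 to 3.32 CPM on HFD. Their log2 changes of 1.69 and 2.47 rest on few counts, and reads of genes with processed copies can be split or lost in counting. Ggps1, which leads away to geranylgeranyl diphosphate, stood at -0.37 and Acat2, the thiolase at the start, at -0.12.

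In the middle of the pathway Sqle, squalene epoxidase, named in the title of the series, was measured at 5.68, 9.48 and 9.92 CPM on normal diet and at 34.2, 15.1 and 27.5 CPM on HFD. Every HFD library lay above every normal-diet library. The mean was 8.36 ± 2.33 CPM (SD, n = 3) on normal diet and 25.6 ± 9.71 CPM (SD, n = 3) on HFD, a fold of 3.06 (log2 1.61, SE 0.29, 95% interval 0.98 to 2.24, edgeR adjusted p = 0.209). In wt liver the fold was 2.60, and the difference between the genotypes' changes had an unadjusted p of 0.582 in edgeR. Sqle (GRCm38 chr15:59315077-59331192) therefore stood higher on HFD in both genotypes by amounts that the test did not tell apart. Fdft1, squalene synthase, was measured at 57.5, 54.0 and 58.7 CPM and at 104, 80.0 and 66.6 CPM, a log2 change of 0.56. Lss, which closes the ring to lanosterol, was at 17.1, 12.4 and 15.6 CPM and at 26.9, 18.6 and 17.8 CPM, a log2 change of 0.49. Both were without overlap, with the highest value in ko_HFD replicate 1.

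Msmo1 and Cyp51, both at the smallest adjusted p, act after lanosterol. Msmo1, the methylsterol monooxygenase that strips methyl groups from lanosterol's products (GRCm38 chr8:64718139-64733792), was measured at 25.03, 20.7 and 25.7 CPM on normal diet and 68.4, 49.9 and 62.4 CPM on HFD. Cyp51, the lanosterol demethylase (chr5:4081145-4104746), was measured at 27.8, 29.6 and 29.7 CPM and at 98.9, 55.6 and 60.2 CPM. The lowest HFD library stood well above the highest normal-diet library for both genes, and the normal-diet libraries of Cyp51 were close to each other. Msmo1 was 2.53-fold higher (log2 1.34, SE 0.19, 95% interval 0.93 to 1.75) and Cyp51 2.47-fold higher (log2 1.30, SE 0.20, 95% interval 0.87 to 1.74), each with an edgeR adjusted p of 0.0713. Without ko_HFD replicate 2 both, with Sqle, had an edgeR adjusted p of 0.0395. With any other ko library left out, the edgeR adjusted p was higher than with all libraries. It was then 0.242 to 0.446 for Msmo1, 0.243 to 0.542 for Cyp51 and 0.412 to 0.635 for Sqle. The other enzymes of these steps that are named here differed less. Dhcr7, the last reductase of 1 branch, stood at 0.42 and Ebp, a sterol isomerase, at 0.20, both without overlap. Nsdhl, Hsd17b7 and Sc5d stood between 0.40 and 0.42 with overlap. Tm7sf2, a sterol reductase, stood at -0.09 with overlap.

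**Figure D1:**
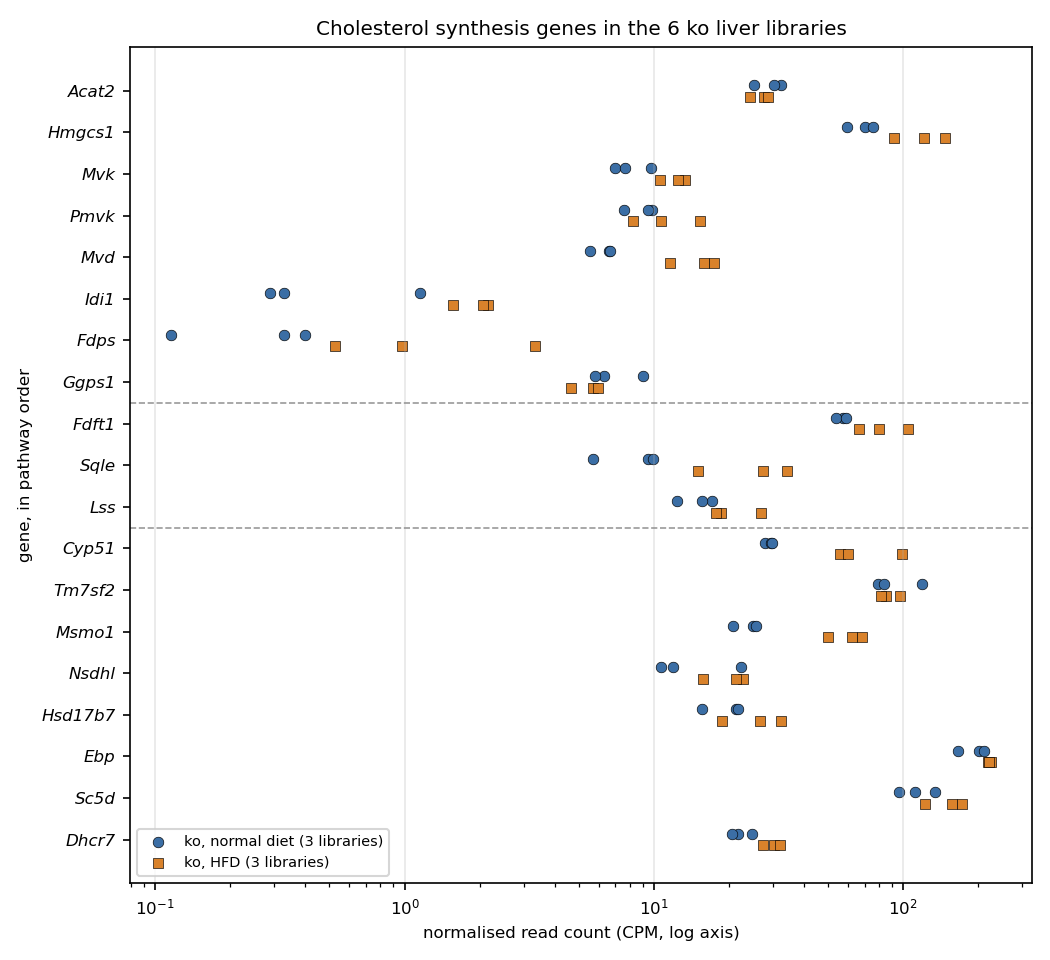
Normalised read count (CPM, log axis) of 19 cholesterol synthesis genes in each of the 6 ko libraries, circles for normal diet and squares for HFD; dashed lines part the mevalonate and isoprenoid, squalene and lanosterol, and later steps. For 12 of them all squares lie to the right of all circles, and for 0 genes to the left.

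The genes that sense and take up sterols stood in both directions: of 13 tested, 5 were higher and 8 lower, with a median of -0.05. Above every normal-diet library lay 3, against 5.45% of all genes, and below 2, against 5.96%, and not all of them are named here. Stard4, a carrier of cholesterol between membranes, was measured at 21.0, 25.5 and 19.8 CPM on normal diet and 43.8, 25.8 and 46.7 CPM on HFD. Srebf2, which encodes SREBP-2 itself, was at 25.5, 32.3 and 30.3 CPM and at 35.0, 39.8 and 38.9 CPM. Both were without overlap and higher on HFD, with log2 changes of 0.81 and 0.37. In contrast Npc1, which exports cholesterol from lysosomes, was lower, at 94.97, 78.2 and 97.1 CPM against 43.9, 64.8 and 53.8 CPM (log2 -0.73, SE 0.18). Insig1, which encodes a retention protein of the endoplasmic reticulum, stood at -0.01 with overlap. Scarb1, the HDL receptor, stood at -0.32 without overlap. None of these 5 had an edgeR adjusted p under 0.55. Among 12 genes of efflux and esterification 5 were higher and 7 lower (median -0.02). Only Nceh1 (0.48), a cholesterol ester hydrolase, did not overlap, which is near the 11.4% of all genes in both directions. Of the 13 apolipoprotein and VLDL assembly genes 9 were higher, and Apoa4 stood highest at 1.32.

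Among the genes of smallest p, those lower on HFD included cytochromes P450 of the liver's drug and steroid metabolism. Cyp2c69 had 175, 200 and 156 counts on normal diet and 7, 10 and 10 counts on HFD, which is 10.1, 9.98 and 8.50 CPM against 0.409, 0.576 and 0.627 CPM. Cyp2c40, its neighbour on chromosome 19, was at 18.3, 19.5 and 13.7 CPM against 1.52, 2.76 and 2.76 CPM. Cyp3a11, a main steroid and drug hydroxylase of mouse liver induced through the receptor PXR, was at 1521, 1181 and 1227 CPM against 465, 256 and 366 CPM. In all 3 genes the normal-diet libraries were close together and far above each HFD library. The mean of Cyp2c69 was 17.6-fold lower on HFD (log2 -4.14, SE 0.62, edgeR adjusted p = 0.0713), that of Cyp2c40 7.29-fold lower (log2 -2.87, SE 0.48, adjusted p = 0.122) and that of Cyp3a11 3.61-fold lower (log2 -1.85, SE 0.29, adjusted p = 0.0713). Fitted to the 6 knockout libraries alone, edgeR called Cyp2c69 (adjusted p = 0.0019) and Cyp2c40 (adjusted p = 0.0201) and no other gene.

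Cyp2c69 and Cyp2c40 are near-identical in the promoter windows below. Their transcripts were not compared here, so their reads may be shared in counting and the pair is best read as 1 uncertain signal. The RefSeq promoter windows, chr19:39886720-39887019 for Cyp2c69 and chr19:39812765-39813064 for Cyp2c40 on the minus strand of GRCm38.p6, are shown for that likeness. Capitals in the lower line mark bases with no equal partner in the upper one: the run at the start reaches past the upper window, since the annotated starts differ.
Cyp2c69: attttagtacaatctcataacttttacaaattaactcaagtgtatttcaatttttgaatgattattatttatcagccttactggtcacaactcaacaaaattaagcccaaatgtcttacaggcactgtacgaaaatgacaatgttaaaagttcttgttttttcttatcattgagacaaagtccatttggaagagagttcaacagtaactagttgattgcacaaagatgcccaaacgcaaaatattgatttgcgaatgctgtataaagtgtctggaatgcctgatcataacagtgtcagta
Cyp2c40: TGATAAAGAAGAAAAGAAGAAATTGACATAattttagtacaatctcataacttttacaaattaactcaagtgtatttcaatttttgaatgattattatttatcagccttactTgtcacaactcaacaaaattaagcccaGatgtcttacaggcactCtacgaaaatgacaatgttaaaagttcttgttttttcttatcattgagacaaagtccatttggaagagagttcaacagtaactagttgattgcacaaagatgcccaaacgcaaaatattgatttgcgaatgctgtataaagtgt
Of 270 aligned bases 267 were identical (98.9%). The rest of the family did not share the size of the difference. Of 12 other Cyp2c entries tested 8 were lower. Of these, Cyp2c23 stood at -0.85, Cyp2c37 at -0.70 and Cyp2c68 at -0.55, each without overlap, while Cyp2c38, Cyp2c54, Cyp2c39, Cyp2c50 and Cyp2c67 stood between -0.68 and -0.26 with overlap. Cyp2c29 stood at 0.52, Cyp2c70 at 0.57, Cyp2c55 at 2.07 and the pseudogene Cyp2c53-ps at 3.48, with overlap. These and the other genes named outside the lists below were chosen after their values were seen. The list of xenobiotic cytochromes and their regulators, which does not hold Cyp2c69, Cyp2c23, Cyp2c67, Cyp2c68 or Cyp2c70, had 27 genes tested, 12 higher and 15 lower with a median of -0.07. In it Cyp3a11, Cyp2c40 and Cyp2c37 lay below every normal-diet library, 3 of 27 against 5.96% of all genes, and 1 lay above, against 5.45%. Cyp2b10, a target of the receptor CAR, was at 33.1 CPM in ko_HFD replicate 1 and at most 3.26 CPM in the other 5 libraries.

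Among 32 conjugating enzymes tested, 22 were lower and 10 higher (median -0.14, and -0.03 without both ko libraries of highest mitochondrial share). Below every normal-diet library lay 4, against 5.96% of all genes, and above 2, against 5.45%, which is near the share over all genes. Ugt1a9, a glucuronosyltransferase, stood lowest at 1.16, 4.39 and 1.64 CPM on normal diet and 0.117, 0.460 and 0.251 CPM on HFD (log2 -3.09, SE 0.80). Gsta2, a glutathione transferase, was measured at 29.7, 11.2 and 9.70 CPM on normal diet and 5.02, 5.87 and 4.33 CPM on HFD (log2 -1.73, SE 0.41). Gstm1, another, was at 1298, 983 and 700 CPM against 499, 562 and 474 CPM (log2 -0.96, SE 0.28). Both were highest in ko_normal replicate 1 and without overlap. Slco1a4, a transporter that takes bile acids and drugs into hepatocytes, stood at -1.29, and Abcc3, which exports conjugates to the blood, at -0.58, again without overlap. Alas1, the rate-limiting enzyme of haem synthesis on which cytochromes depend, was at 214, 227 and 321 CPM on normal diet and at 1802, 284 and 1890 CPM on HFD. It was high in ko_HFD replicates 1 and 3 and inside the normal-diet range in replicate 2. The NRF2 targets, genes of the antioxidant response, were 7 higher and 7 lower.

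**Figure D2:**
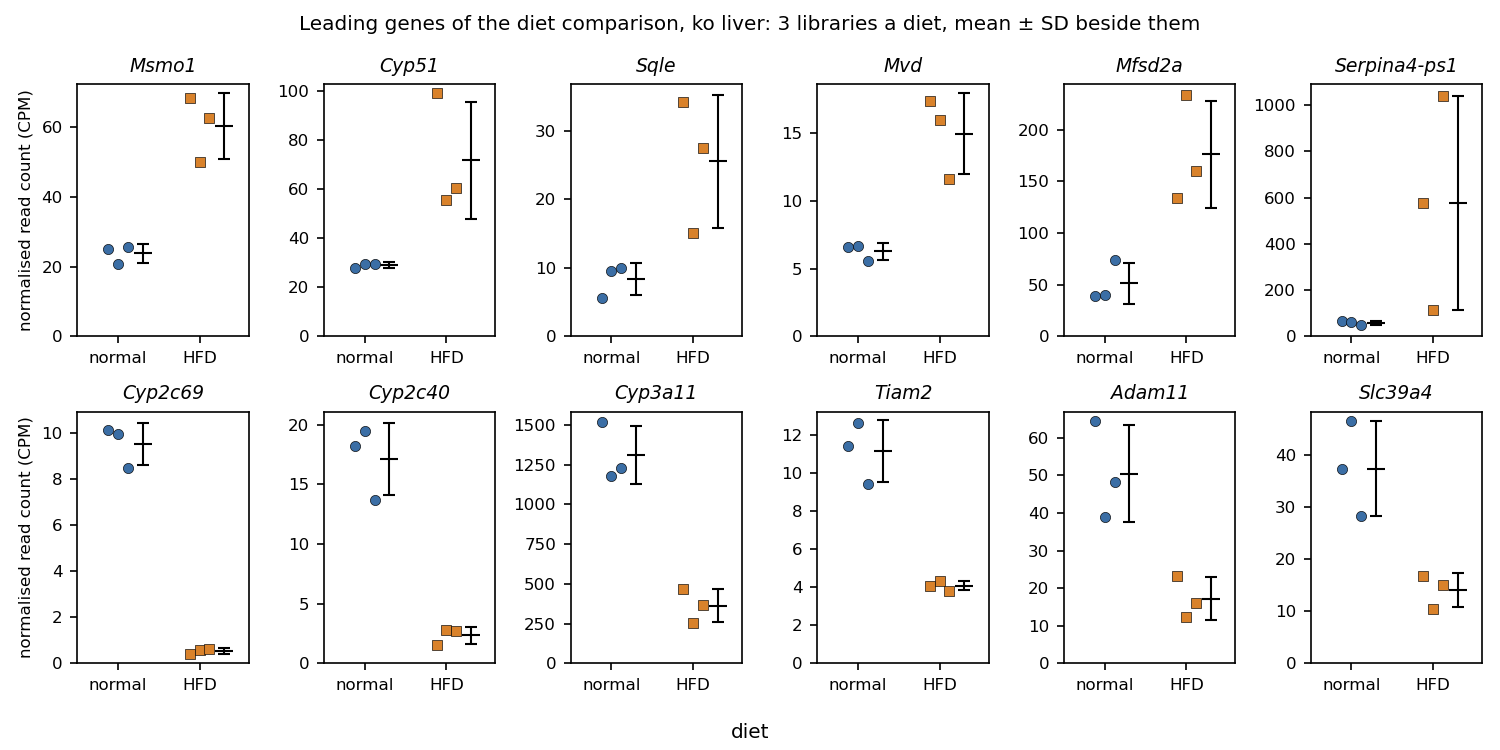
Normalised read count (CPM, linear axis from 0) of 12 leading genes in the 3 normal-diet (circles) and 3 HFD (squares) ko libraries, with mean and SD beside the points. The upper 6 genes were higher and the lower 6 lower on HFD with no overlap, and Serpina4-ps1 spread widest among the HFD libraries, from 115 to 1040 CPM.

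The 12 genes of smallest p in each direction, 24 in all, include 7 already described: Msmo1, Cyp51, Sqle, Mvd, Cyp2c69, Cyp3a11 and Cyp2c40. Among the others, Mfsd2a, which carries lysophospholipids with polyunsaturated fatty acids across membranes (chr4:122946850-122961188), was measured at 39.0, 40.4 and 74.1 CPM on normal diet and 134, 233 and 160 CPM on HFD (log2 1.78, SE 0.33, edgeR adjusted p = 0.209). Serpina4-ps1, a serpin pseudogene, was at 67.0, 61.9 and 49.9 CPM and at 577, 115 and 1040 CPM (log2 3.28, SE 0.68, adjusted p = 0.332). Both were without overlap. Dph3, a diphthamide synthesis factor, stood at 0.77, Trim7, a ubiquitin ligase, at 1.16, Pth1r, the receptor of parathyroid hormone, at 0.99, Tcim at 1.14 and Serpina3g, a serpin, at 1.05. Lower on HFD, Tiam2, an exchange factor of the GTPase Rac (chr17:3326573-3531344), was at 11.4, 12.6 and 9.43 CPM against 4.09, 4.32 and 3.82 CPM (log2 -1.45, SE 0.22, adjusted p = 0.0713). The HFD libraries of Tiam2 were close to each other and all well below the normal-diet ones. Adam11, an ADAM protein without protease activity, was at 64.4, 38.8 and 48.1 CPM against 23.4, 12.3 and 16.2 CPM (log2 -1.55, SE 0.29, adjusted p = 0.209). Slc39a4, the zinc importer ZIP4, was at 37.4, 46.6 and 28.2 CPM against 16.8, 10.4 and 15.1 CPM (log2 -1.41, SE 0.27, adjusted p = 0.227). Neither gene overlapped. Snhg11, a host transcript of small nucleolar RNAs, stood at -1.86, with 45.5 CPM in ko_normal replicate 1 and 4.58 to 19.9 CPM elsewhere. Cdc14b, a phosphatase, stood at -0.99, Fbxo21, a ubiquitin ligase adaptor, at -0.94, Khnyn, a cofactor of antiviral RNA decay, at -0.95, Setd1b, a histone H3K4 methyltransferase, at -0.82 and Cpeb2, an mRNA-binding regulator of translation, at -0.95. Meg3 and Rian, imprinted long RNAs of 1 cluster, were at 99.0 and 18.8 CPM in ko_normal replicate 1 and at most 11.2 and 2.05 CPM in the other 5 libraries (log2 -2.53 and -3.48). Without that library Meg3 had no common direction, while Rian, at 2.05 and 2.02 CPM against 0.526, 0.863 and 0.627 CPM, was still lower in each HFD library.

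The genes of fat synthesis moved in different directions. Of 13 lipogenic genes 6 were higher and 7 lower (median -0.17). Scd1, the desaturase that makes monounsaturated fatty acids, was measured at 1728, 1538 and 797 CPM on normal diet and 318, 486 and 620 CPM on HFD, lower without overlap (log2 -1.51, SE 0.61, edgeR adjusted p = 0.868). Acacb (-0.63) and Acss2 (-0.28), enzymes that make malonyl-CoA and acetyl-CoA, were also lower without overlap. Thrsp, the lipogenic protein Spot 14, was at 32.9, 62.9 and 18.6 CPM and at 938, 46.9 and 220 CPM (log2 3.40, SE 1.05). It was high in ko_HFD replicate 1, inside the normal-diet range in replicate 2, and its log2 change without replicate 1 was 1.801. Elovl6, a fatty acid elongase, stood at 0.81 with overlap. Fads1, a desaturase of polyunsaturated fatty acids, stood at 0.57, and 10 of the 14 genes of polyunsaturated fatty acid and triglyceride synthesis were higher (median 0.23). For 0 genes of that list did the diets lie apart, against 11.4% of all genes in both directions. Without ko_HFD replicate 3 the median of that list was -0.07. Without ko_normal replicate 2 the lipogenic median was 0.10.

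Fatty acid oxidation and ketogenesis showed no common direction. Of 26 genes 14 were higher and 12 lower (median 0.05). An unadjusted p under 0.05 was found for 0, against 5.63% of all genes. Outside the range of the other diet lay 0, against 11.4% of all genes in both directions. Acadvl, the dehydrogenase of very long chains, stood at -0.62 and the coactivator Ppargc1a at -0.69, while Cpt2, of the carnitine shuttle, stood at 0.37 and Crat, carnitine acetyltransferase, at 0.48. The summed level of the list was lowest in ko_normal replicate 1 (6995 CPM) and ko_HFD replicate 1 (8361 CPM) and 14327 to 16138 CPM in the other 4 libraries. The list's median was -0.17 when ko_normal replicate 1 was left out, stood at 0.28 when its replicate 2 was left out, and at -0.34 without both libraries of highest mitochondrial share. Lipid droplet genes (16 tested, 9 higher, median 0.14) and genes of fatty acid uptake (13 tested, 10 higher, median 0.19) likewise had no member without overlap, and their medians ran from -0.16 to 0.28 and from 0.01 to 0.36 with 1 knockout library left out.

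In glucose metabolism single genes differed more than the list, which had 6 of 21 higher and 15 lower (median -0.15). Pck1, the rate-limiting enzyme of gluconeogenesis, was measured at 5101, 2928 and 4238 CPM on normal diet and 1590, 1920 and 2603 CPM on HFD (log2 -1.005, SE 0.30, edgeR adjusted p = 0.641). All HFD libraries lay below all normal-diet libraries. Foxo1, a transcription factor held back by insulin, stood at 0.54 and Ppp1r3b, a glycogen-targeting subunit of phosphatase 1, at 1.17, both higher without overlap.

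Secreted factors of the liver were mostly higher: 14 of 19 hepatokines, with a median of 0.34, 5 of them above every normal-diet library against 5.45% of all genes. Tsku, tsukushi, was measured at 140, 108 and 72.6 CPM on normal diet and 557, 159 and 415 CPM on HFD (log2 1.82, SE 0.43). Lect2, a chemotactic hepatokine, was at 94.7, 98.2 and 89.9 CPM and at 160, 190 and 203 CPM (log2 0.97, SE 0.27). Both groups of 3 were apart for each gene, and the values of Lect2 were even within each diet. Gdf15, a stress-induced cytokine and p53 target, was at 26.7, 13.1 and 10.6 CPM and at 83.5, 19.7 and 108 CPM (log2 2.07, SE 0.64, edgeR adjusted p = 0.663), with ko_HFD replicate 2 inside the normal-diet range. Inhbc and Inhba, activin subunits, stood at 0.63 and 0.78 without overlap, and Fgf21, the fasting hormone, at 1.15 with overlap.

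The periportal programme, the amino acid and urea enzymes of hepatocytes near the portal vein, was lower on HFD. Of 14 genes 12 were lower (median -0.58), 5 lay below every normal-diet library and 4 had an unadjusted p under 0.05, against 5.96% and 2.99% of all genes. Their summed level was 9871 to 13412 CPM on normal diet and 6320 to 8537 CPM on HFD, without overlap. Arg1, arginase, was measured at 1414, 1230 and 1418 CPM and at 669, 737 and 1107 CPM (log2 -0.69, SE 0.24). Hal, histidine ammonia lyase, was at 410, 358 and 491 CPM and at 190, 296 and 191 CPM (log2 -0.89, SE 0.31). Cps1, which fixes ammonia for the urea cycle, was at 808, 984 and 1056 CPM and at 419, 442 and 809 CPM (log2 -0.77, SE 0.31), with the highest HFD library just above the lowest normal-diet one. The smallest edgeR adjusted p in the list was 0.641, that of Pck1. The overlapping urea cycle and ammonia list had 11 of 14 lower (median -0.34) and Got1, an aspartate aminotransferase, at -0.96 without overlap.

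Other amino acid enzymes stood in the same direction. Of 23 genes of serine, glycine and other amino acid breakdown 18 were lower (median -0.26) and 5 lay below every normal-diet library, against 5.96% of all genes. Etnppl, phosphoethanolamine phospholyase, was at 151, 91.3 and 73.4 CPM on normal diet and 36.1, 54.6 and 30.3 CPM on HFD (log2 -1.38, SE 0.37). Of 17 genes of tryptophan, tyrosine and NAD metabolism 15 were lower (median -0.19), among them Acmsd (-1.15), which turns tryptophan carbon away from NAD, and Kynu, kynureninase (-0.50). The pericentral list, whose genes mark the other end of the lobule, had 7 higher and 8 lower (median -0.12, and 0.18 without ko_HFD replicate 1). Glul, its defining glutamine synthetase, was at 994, 1225 and 1373 CPM and at 1149, 1727 and 1697 CPM, with overlap.

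**Figure D3:**
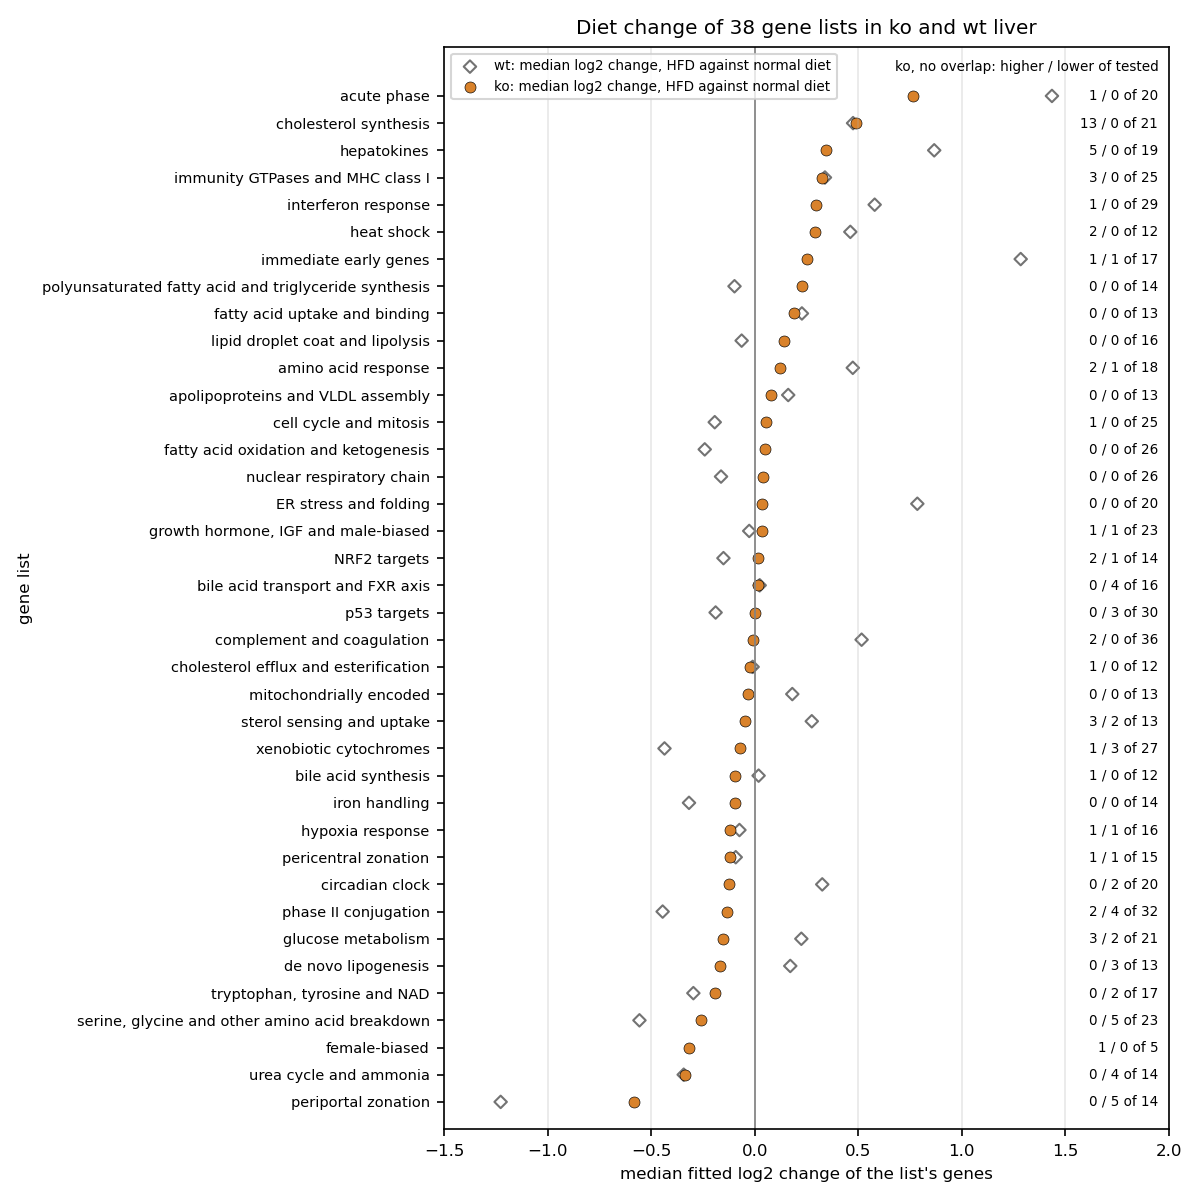
Median fitted log2 change between HFD and normal diet for 38 gene lists in ko (filled circles) and wt liver (open diamonds), with the number of ko genes whose HFD libraries all lie above or below the normal-diet libraries. Cholesterol synthesis has 13 of 21 genes above and periportal zonation 5 of 14 below.

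Inflammatory genes differed by library rather than by diet. Of 20 acute phase genes 17 were higher (median 0.76), yet without ko_HFD replicate 1 the median was -0.46. Saa2, serum amyloid A, was measured at 23.3, 1584 and 592 CPM on normal diet and at 18275, 81.9 and 222 CPM on HFD. Lcn2, lipocalin 2, was at 11.4, 169 and 67.5 CPM and at 1376, 29.5 and 57.0 CPM. For both, ko_HFD replicate 1 was far above every other library and ko_normal replicate 1 was the lowest. Neutrophil markers moved with them: the 4 tested genes summed to 44.4 CPM in ko_HFD replicate 1 and to 3.42 to 8.45 CPM in the other 5 libraries, and the list's median of 2.24 was -0.37 without that library. Of the 10 matched neutrophil markers 0 were without a count in every knockout library, and 1 had at most 3 counts in each. Whether these cells bear on the acute phase values was not tested. Of the 20 acute phase genes only Saa4, a constitutive serum amyloid, lay above every normal-diet library, near the 5.45% of all genes. It was at 283, 409 and 395 CPM against 1438, 642 and 471 CPM.

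Antigen presentation genes were mostly higher by their fitted values. Of 25 immunity GTPase and MHC class I genes 22 were higher (median 0.32), 3 lay above every normal-diet library against 5.45% of all genes, and 6 had an unadjusted p under 0.05, all higher, against 2.64%. Their summed level overlapped, at 5509 to 6452 CPM on normal diet and 5347 to 7163 CPM on HFD, with the lowest value in ko_HFD replicate 1. Tap2, a peptide transporter, was at 28.2, 23.9 and 29.5 CPM and at 38.0, 44.5 and 37.5 CPM (log2 0.56, SE 0.18). Psmb9, an immunoproteasome subunit, stood at 0.88 with overlap. Of 29 interferon response genes 23 were higher (median 0.30), but the median without ko_normal replicate 1, the lowest library of the list, was -0.07. Igha, the heavy chain of IgA, was at 1.796, 0.699 and 2.62 CPM and at 8.99, 12.6 and 4.33 CPM, without overlap (log2 2.35, SE 0.50, edgeR adjusted p = 0.357). Other immunoglobulin genes, chosen after their values were seen, were less uniform. Ighm, Igkc, Ighg1 and Ighg2b overlapped between the diets, while Ighg2c and Jchain did not. Ighg2c, on few counts, was at 0.174, 0.300 and 0.0545 CPM and at 2.98, 0.460 and 1.07 CPM. Jchain, which links IgA chains, was at 1.16, 0.699 and 0.818 CPM and at 1.75, 1.90 and 1.76 CPM. The 8 tested B and plasma cell markers summed to 12.0 to 26.8 CPM on normal diet and 22.3 to 33.8 CPM on HFD, with 6 higher and 2 lower. The 8 tested T and NK cell markers summed to 5.24 to 8.92 CPM and 9.73 to 10.8 CPM, with 7 higher. Of these 8, 1 lay above every normal-diet library, against 5.45% of all genes. An unadjusted edgeR p under 0.05 was found for 0 of them, against 5.63% of all genes. The summed share of all 14 listed T and NK cell markers overlapped, at 0.000589% to 0.00109% of the counts on normal diet and 0.00104% to 0.00133% on HFD. Kupffer cell and macrophage markers were 10 higher and 10 lower (median -0.05), endothelial markers 5 higher and 9 lower, and all 7 tested cholangiocyte markers were lower (median -0.38), with sums of 54.4 to 90.6 CPM on normal diet and 55.7 to 65.2 CPM on HFD.

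**Figure D4:**
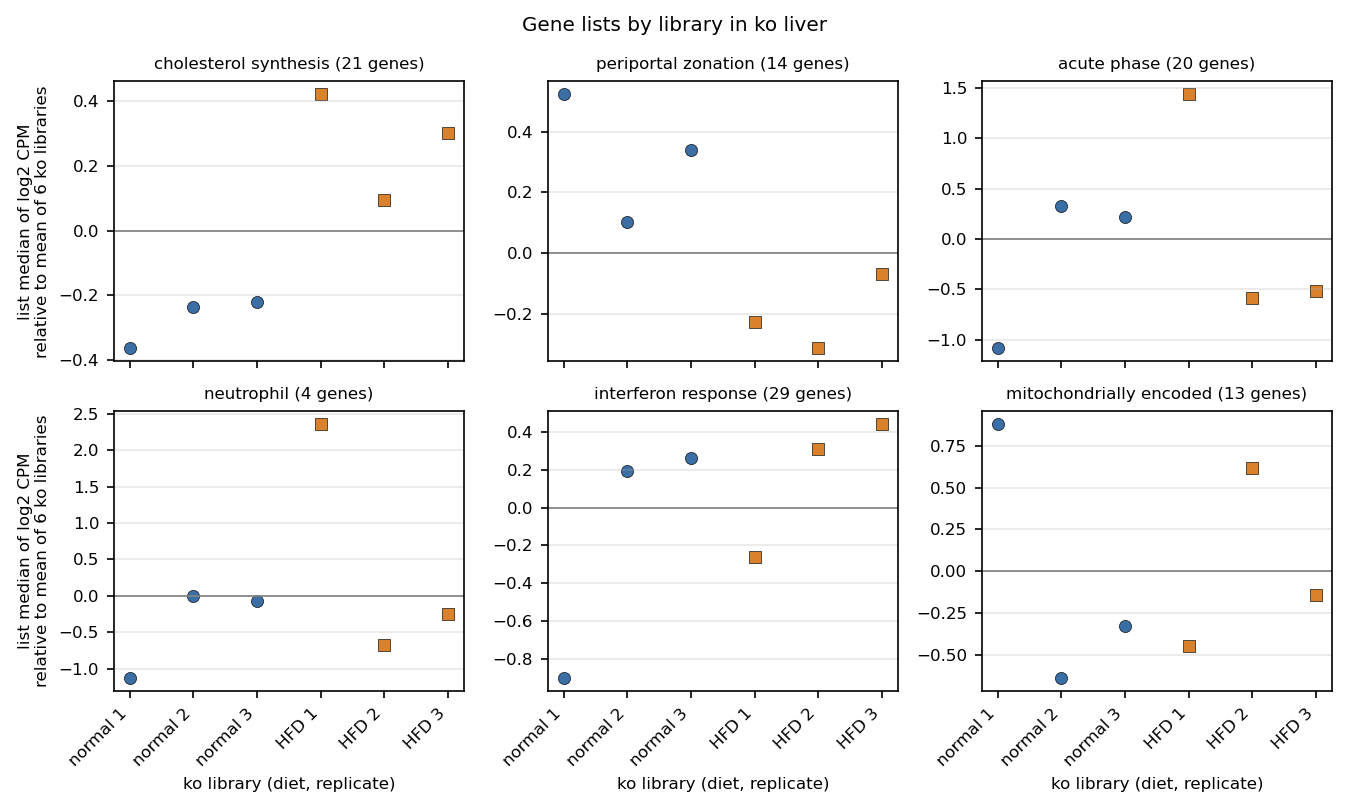
Median log2 CPM of 6 gene lists in each ko library, relative to the mean of the 6 ko libraries (circles normal diet, squares HFD). Cholesterol synthesis and periportal genes part the diets, acute phase and neutrophil genes stand out in HFD replicate 1, and mitochondrially encoded genes in normal replicate 1 and HFD replicate 2.

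Genes known as p53 targets, measured here in livers without p53, were balanced: 15 of 30 were higher and 15 lower, with a median of 0.00089. Beside Gdf15, Bbc3, which encodes the pro-apoptotic PUMA, was measured at 19.6, 13.1 and 15.7 CPM on normal diet and at 5.08, 12.95 and 8.21 CPM on HFD. It was lower with the groups just apart (log2 -0.88, SE 0.34, edgeR adjusted p = 0.858). Sesn1, a stress-induced regulator of mTORC1, stood at -0.65 without overlap and Plk2, a kinase, at -0.68 with overlap. Clock genes were 6 higher and 14 lower (median -0.13, and 0.02 without both libraries of highest mitochondrial share). Cry2, a clock repressor, was at 36.7, 25.01 and 31.0 CPM and at 24.002, 22.8 and 15.1 CPM, and Nr1d1, the repressor REV-ERBα, at 227, 129 and 123 CPM and at 24.99, 108 and 117 CPM, both without overlap. Bhlhe41 stood at -0.82 and Nfil3 at -0.43, both with overlap. Cell cycle genes (25 tested, 14 higher, median 0.06) had 1 member outside the range of the other diet. Genes of endoplasmic reticulum stress (20 tested, 13 higher, median 0.04) had 0, against 11.4% of all genes in both directions.

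The diet changes of the wild type share no library with those of the knockout, but 1 fit gave both the same estimate of spread. In wt liver edgeR called 100 genes (0.693%), 62 higher on HFD (0.43%) and 38 lower (0.263%), and 2453 (17.0%) had an unadjusted p under 0.05, 1225 higher (8.49%) and 1228 lower (8.51%). Of the 100 called genes, 89 had the same direction in knockout liver, against 64.0% of all genes tested. Of the 62 genes that rose in wt, 25 (40.3%) were higher in ko with an unadjusted p under 0.05, against 2.64% of all genes, with a median ko log2 change of 0.36. Of the 38 that fell in wt, 18 (47.4%) were lower in ko with an unadjusted p under 0.05, against 2.99%, with a median of -0.63. The genes were chosen by their wt values, which favours large wt changes, so the sizes in the genotypes are not compared here. A gene with a small shared spread tends to a small p in both contrasts, so the shares over all genes are no matched background. Without wt_normal replicate 2, the library with muscle genes, 23 genes were called in wt, and 19 of them had the same direction in ko. Across all 14433 genes the correlation of the log2 changes of the genotypes was 0.29, given as a description across genes that are not independent. Msmo1, Cyp51 and Mvd were called in wt, with log2 changes of 1.85, 1.35 and 1.39 beside 1.34, 1.30 and 1.25 in ko.

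The difference between the diet changes of the genotypes was tested directly. No gene passed (0 of 14433, 0.0%), 725 (5.02%) had an unadjusted p under 0.05, 373 with the ko change above the wt change (2.58%) and 352 below it (2.44%), and the smallest edgeR adjusted p was 0.0587. DESeq2 called 19 genes and voom 1. In cholesterol synthesis 1 of 21 genes had an unadjusted p under 0.05 for the difference, and the medians were 0.49 in ko and 0.48 in wt. The gene at the smallest p was Serpina12, vaspin, a secreted serpin linked to insulin sensitivity. It was measured at 108, 121 and 89.8 CPM in ko_normal and 200, 170 and 221 CPM in ko_HFD, and at 25.7, 14.5 and 13.2 CPM in wt_normal and 213, 264 and 183 CPM in wt_HFD. The HFD libraries of both genotypes lay in a similar range, and the ko_normal libraries lay above every wt_normal library. Its log2 change was 0.89 (SE 0.25) in ko and 3.63 in wt. Foxq1, a forkhead factor, stood at -0.50 in ko and 2.59 in wt (adjusted p of the difference 0.217). It was at 15.1 to 20.4 CPM in ko_normal and 10.4 to 15.4 CPM in ko_HFD. In wt it was at 2.03 to 5.52 CPM on normal diet and 15.5 to 29.1 CPM on HFD. Here too each ko_normal library lay above each wt_normal library.

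Cyp3a11 was lower on HFD in both genotypes, by a log2 of -1.85 in ko and -3.69 in wt, where the test called it. The HFD libraries were at 256 to 465 CPM in ko and 77.8 to 162 CPM in wt, and the difference between the changes had an unadjusted p of 0.000518 and an adjusted p of 0.675 in edgeR. Gsta2 stood at -1.73 and -4.49. Cyp2c69 and Cyp2c40 stood at -0.98 and -0.79 in wt beside -4.14 and -2.87 in ko, with unadjusted p of the difference of 0.0018 and 0.0066. Adam11 (0.04 in wt) and Mfsd2a (0.43 in wt) had unadjusted p of 0.0017 and 0.012. Igha stood lower in wt on HFD (log2 -1.14) and higher in ko, with an unadjusted p of 0.00025. In wt_normal replicate 2 B and plasma cell markers took 0.0284% of the counts, against at most 0.00316% in any other library, and Igha was at 8.24 CPM there against 4.001 and 4.85 CPM in the other wt_normal libraries. The part of these cells in the difference was not tested. All of these genes had an edgeR adjusted p of the difference of 0.675 or more. Among 20 genes of endoplasmic reticulum stress, 8 had an unadjusted p under 0.05 for a change in ko below that in wt, against 2.44% of all genes. The list's medians were 0.04 in ko and 0.79 in wt. Creld2 and Derl3 were among the 8, at 0.23 and -0.34 in ko beside 1.59 and 2.08 in wt. Creld2 was at 75.01 to 93.6 CPM in ko_normal and 93.2 to 107 CPM in ko_HFD. In wt it was at 27.5 to 53.7 CPM on normal diet and 107 to 127 CPM on HFD. Derl3 was at 20.3 to 27.1 CPM in ko_normal and 10.3 to 23.2 CPM in ko_HFD. In wt it was at 3.05 to 8.68 CPM and 23.2 to 27.7 CPM. For both genes each ko_normal library lay above each wt_normal library.

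**Figure D5:**
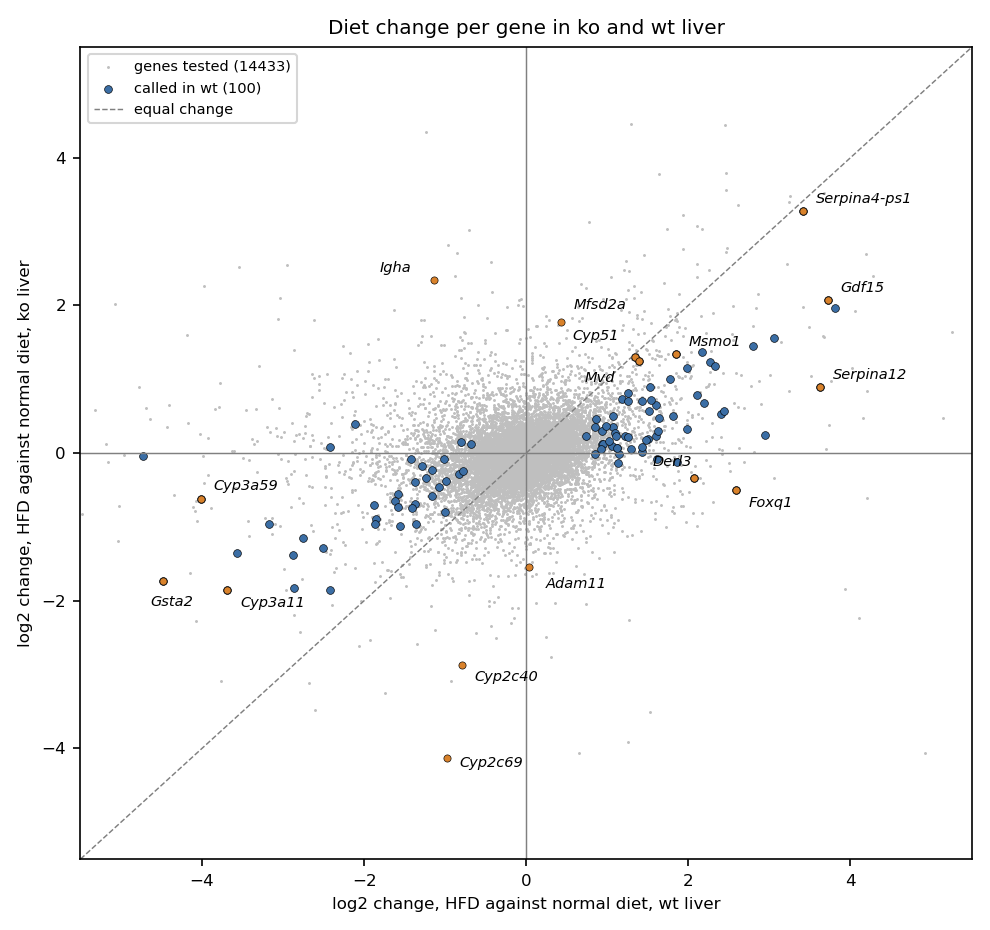
Fitted log2 change between HFD and normal diet in ko liver (vertical) against wt liver (horizontal) for each gene tested, with the 100 genes called in wt and selected genes marked. Of the 100, 89 lie on the same side of 0 in both genotypes; 22 genes lie outside the axes.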

How the data were processed

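RNA sequencing of 12 liver libraries was analysed from 1 table per library of whole-number read counts per gene, as the authors deposited them. CASAVA 1.8, Bowtie 0.12.2 and the builds mm8 and mm9 are named, without their roles, per the submitters' processing notes. The sources used here give no counting tool, annotation or strand setting. The files list 52636 genes. Names and positions come from GENCODE M21 on GRCm38, looked up by identifier, and are not the authors' coordinates. Replicates differed by far more than counting error (chi-square per degree of freedom 39.5 to 199 over genes with at least 20 counts), so all 12 were kept. Genes were filtered with filterByExpr and normalised with TMM, and CPM are edgeR's scaled counts. Differences were tested with edgeR 4.0.16 (R 4.3.3) by the quasi-likelihood F-test, two-sided, in 1 fit of 4 groups to 12 libraries (8 residual degrees of freedom), with Benjamini-Hochberg adjustment over 14433 genes and a threshold of 0.05. An exact permutation test of 3 against 3 libraries cannot go below 0.1 and was not used. Intervals cover 95%. The test was tried on simulated counts (200 changed genes, 5 simulations, 5.6 false calls on average). Alternatives used DESeq2 1.42.0, voom of limma 3.58.1, other factors and filters, and fewer libraries.

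The 50 lists (889 of 890 entries matched) and the comparison were chosen with earlier results of these data known. The rule for named genes took Trp53, Sqle, called genes, and the 4 smallest p of 5 lists. Since no gene was called, the 12 smallest p in each direction without overlap were added, predicted models left out. They and further single genes were chosen after their values were seen. Promoter sequences come from RefSeq. Some single genes that enter the counts are not reported here.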

Additional observations from a re-analysis of the deposited data

How the results depend on the processing

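Over 23 alternatives, 890 of 943 log2 changes of 41 named genes kept their direction and side of the threshold, 49 passed it and 4 reversed. None of the 41 had passed the threshold in the main fit, so the loss of a call could not occur. Many were chosen for a small p without overlap, which favours a kept direction. The number of genes called in ko was 0, and became 2 with only the 6 libraries of the genotype, 21 with no filter on low counts, 37 with the DESeq2 Wald test and 6 with voom; with 1 library left out it ran from 0 to 6 (6 without ko_HFD replicate 2, 1 without wt_HFD replicate 1). The cause was not tested. The number called in wt was 100, and became 34, 696, 665 and 363 under the same 4 settings and 9 to 131 with 1 library left out (23 without wt_normal replicate 2). Genes whose change differed between genotypes numbered 13 with no filter, 19 with DESeq2, 1 with voom and 0 to 1 with 1 library left out. Voom gave 1912 genes with an unadjusted p under 0.05 in ko, against 812. The log2 change of Trp53, at few counts, was -0.03, and became 1.16 with voom, -0.44 to 1.10 with 1 library left out and 1.09 without both ko libraries of highest mitochondrial share, a setting chosen after seeing the data. There Crat became -0.12. Same-numbered ko libraries did not deviate together (r -0.05, -0.28 and 0.05). Same-numbered wt libraries had r of 0.167, 0.176 and 0.0099. With 3 libraries a group these values cannot settle whether the numbers pair samples. A replicate block called 0 genes in ko (smallest edgeR adjusted p 0.117). Of 1149 list medians 65 moved by more than their spread.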
